A study of Mus musculus with 3 samples.

Results

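The Id genes, Id1, Id2, Id3 and Id4, were followed through 3 Affymetrix arrays of R1 mouse embryonic stem cells. All probe sets that the platform annotation pairs with an Id gene were taken, which gave 8 of the 45101 probe sets: 1 for Id1, 3 for Id2, 1 for Id3 and 3 for Id4. None of the 8 was paired with a further gene. The arrays stood for 3 states of undifferentiated R1 cells, an established mouse line: BMP4 at 20 ng/ml for 4 h, noggin at 100 ng/ml for 4 h, and no treatment. The labels give no time for the untreated cells. Each state had 1 array, so no difference has a replicate error and no test was possible. Values are log2 expression values per probe set, computed by the authors with RMA, and on this scale a difference of 1 is a 2-fold difference.

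Id proteins carry a helix-loop-helix domain for pairing but lack the basic stretch that contacts DNA. A pair of an Id protein with an E protein, the common partner of basic helix-loop-helix (bHLH) activators, therefore cannot bind its DNA site. BMP4 binds serine-threonine kinase receptors that activate SMAD transcription factors, and Id genes are known as direct targets of these SMADs, whereas noggin binds BMPs outside the cell. In mouse embryonic stem cells, Id proteins are known to help hold back neural differentiation in cultures with LIF.

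Markers of embryonic stem cells were present on each array. A floor of 3.44, which is the median over all values, served as the limit of low signal. All 10 markers lay above it, and their median level was 11.16 with BMP4, 11.04 with noggin and 11.08 untreated. Of 9 fibroblast markers, 6 reached the floor on at least 1 array, as did 11594 of all 18193 named genes, a similar share. Col1a1, Col3a1 and Lum were below the floor on each array. The summed log2 level of the 9 was 34.9 with BMP4, 36.2 with noggin and 36.3 untreated. The 6 primitive endoderm markers summed to 22.6 with BMP4, 20.9 with noggin and 21.0 untreated. Gata4, Foxa2 and Afp were below the floor throughout. The 3 above it were all higher with BMP4, where 24.8% of all genes above the floor were higher. Sox7 was higher by 0.99, Gata6 by 0.52, with 0.90 on another probe set, and Sox17 by 0.08. The Sox17 difference lay inside the range of −0.25 to 0.21 that held most genes. Of the 5 trophoblast markers, Eomes and Hand1 were above the floor, and Eomes differed by 0.46 with BMP4, with 0.11 on another probe set. All 5, with Cdx2, Elf5 and Krt7 below the floor throughout, summed to 18.6 with BMP4, 17.6 with noggin and 18.1 untreated. Of the 3 neuroectoderm markers on the arrays, Pax6 and Nes were above the floor. Pax6 differed by −0.37 with BMP4 and Nes by 0.03. Pax6 lay near the floor, at 3.48 with BMP4 and 3.84 untreated, and its other probe sets were below it. All 3 markers summed to 12.5 with BMP4, 13.0 with noggin and 12.9 untreated. The fibroblast marker S100a4 differed by −0.55 with BMP4. Poly-A spikes, control RNAs mixed into a sample ahead of labelling, had a median difference of −0.63 for BMP4 minus untreated, with 24 of 24 probe sets below 0, and of −0.18 for noggin minus untreated, with 23 below 0. Their part and that of these markers in the Id values was not tested. In bulk RNA, more cells that express a gene and more transcript per cell cannot be told apart.

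Cells given BMP4 were set against untreated cells to ask how far Id transcripts stand from their basal level after 4 h of added ligand. All 8 Id probe sets were higher with BMP4. Above the floor this was 7 of 7, against 28.7% of all 22755 probe sets there. At least 2-fold higher were 4 of these 7, against a background of 0.132%. With 1 probe set per gene, 3 of the 4 Id genes, Id1, Id2 and Id3, reached 2-fold, against 0.0949% of 11594 genes. These 4 held ranks 1 to 4 among the 45037 probe sets that are not array controls. The next in order was a Malat1 probe set at 2.34, a nuclear long non-coding RNA. At a limit of 1.5-fold the count was 5 of 7 Id probe sets, against a background of 0.519%.

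Id2, which in mice is also known for its part in lymphoid and mammary development, had the largest differences. Its probe set 1422537_a_at read 8.90 with BMP4, 4.31 with noggin and 4.80 untreated, and 1435176_a_at read 8.85 with BMP4, 4.09 with noggin and 4.14 untreated. Both read high on the BMP4 array and lay much nearer the floor on the other 2 arrays. BMP4 minus untreated was 4.10 for the first and 4.71 for the second, a 17.1-fold and a 26.1-fold higher value. The 2 probe sets thus differed by 0.61 in the size of the difference. The third, 1453596_at, read 2.78 with BMP4, 1.46 with noggin and 2.001 untreated. It stayed below the floor on all 3 arrays, so its 1.72-fold difference was measured within low signal. The annotation gives these 3 probe sets 3 different source sequences, and the suffix a_at of the first pair marks probes that match several transcripts of 1 gene.

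Id3, a close relative of Id1 that acts with it in the vasculature of mouse embryos, read 9.16 with BMP4, 5.31 with noggin and 5.58 untreated. Its 1 probe set, 1416630_at, was 12-fold higher with BMP4, a difference of 3.58. Id1 was read by 1425895_a_at alone, at 11.54 with BMP4, 8.59 with noggin and 8.78 untreated. Its BMP4 value was 6.79-fold higher, a difference of 2.76. Of the Id probe sets, that of Id1 alone lay above 6.04, the 75th percentile of all values, on each of the 3 arrays. With 1 probe set each, neither Id1 nor Id3 had a second reading of its difference.

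Id4, the member known best from neural progenitors, differed less. Probe set 1423259_at read 6.65 with BMP4, 5.41 with noggin and 5.81 untreated. The other 2 read lower: 1450928_at had 4.93 with BMP4, 4.01 with noggin and 4.42 untreated, and 1423260_at had 4.60 with BMP4, 4.04 with noggin and 4.26 untreated. BMP4 minus untreated was 0.84, 0.50 and 0.34 in the same order, from a 1.79-fold to a 1.27-fold higher value. The first passed 1.5-fold and the other 2 did not, and the mean of the 3, 0.56, fell just short of that limit at 0.58. The 3 were designed from 1 source sequence per the annotation, so they are not independent readings.

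**Figure D1:**
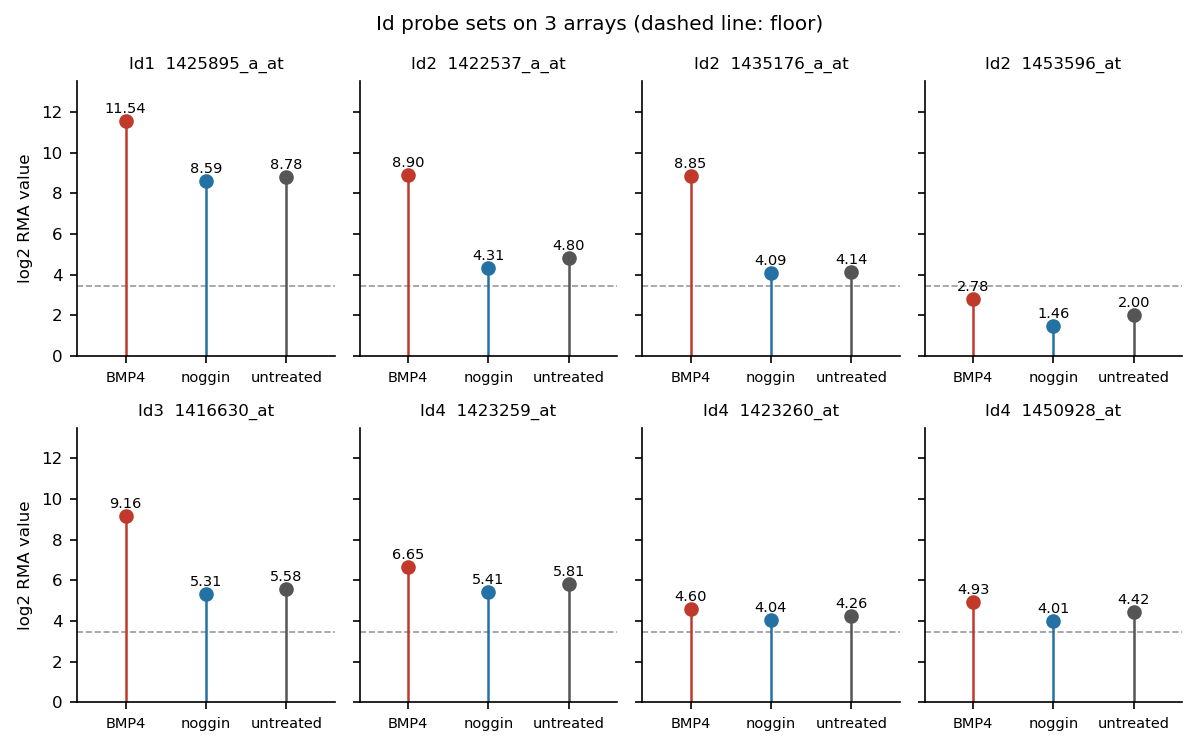
Each panel plots 1 Id probe set, with the log2 RMA value on the vertical axis and the BMP4, noggin and untreated arrays from left to right, 1 array each. The dashed line is the floor of 3.44; BMP4 was the highest and noggin the lowest array in all 8 panels, and Id2 1453596_at stayed under the floor.

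The spread among other probe sets gives a scale for these sizes. It holds exact ties, 39.6% of probe sets above the floor in BMP4 minus untreated, and was not split by origin. Probe sets of the same gene gave BMP4 minus untreated differences with a within-gene SD of 0.13, over 13661 probe sets of 5137 genes other than Id genes. In this comparison the Id2 pair above the floor lay 0.61 apart and the 3 Id4 probe sets spanned 0.50, both wider than that SD. The SD describes agreement within an array pair and not the spread between cultures. Differences were also set beside those of probe sets of like level, whose mean over the 3 arrays lay within 0.5 of each Id probe set. All 7 Id probe sets above the floor stood above the central 95% range of these. For Id1 that range ran from −0.20 to 0.21 over 1220 probe sets, and for Id3 from −0.25 to 0.31 over 3575. The smallest Id difference, 0.34 for 1423260_at of Id4, lay just above its range of −0.26 to 0.30, and 452 of the 22755 probe sets above the floor, 1.99%, had a difference at least as high.

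**Figure D2:**
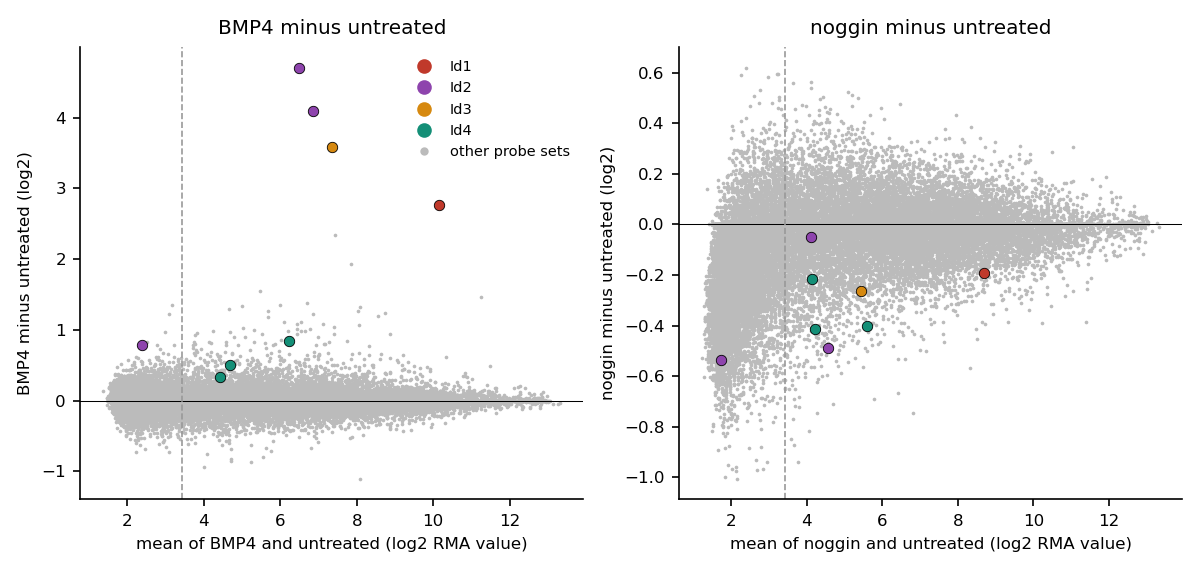
Differences in log2 are plotted against the mean log2 RMA value of the 2 arrays compared, for BMP4 minus untreated on the left and noggin minus untreated on the right, with coloured circles for Id probe sets, grey points for all other probe sets that are not controls, and a dashed line at the floor of 3.44. With BMP4, 4 Id points lie above the whole grey cloud, between 2.76 and 4.71; with noggin, all 8 lie below 0 but within the cloud, and the 2 panels have different vertical scales.

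Windows around the transcription start were read from a table of RefSeq promoter sequences on GRCm38.p6, in which 3 of the 4 Id genes, Id2, Id3 and Id4, were matched. The 250 bases before the start of Id2 (chr12:25096093-25096342, minus strand), Id3 (chr4:136143572-136143821, plus strand) and Id4 (chr13:48260866-48261115, plus strand) are shown because these genes were higher together with BMP4 but by different amounts. Capitals mark matches on either strand to GGCGCC, a GC-rich motif bound by BMP-activated SMADs, to GTCT, the core of the SMAD-binding element, and to TGACG, a core sequence of the cAMP response element.
Id2: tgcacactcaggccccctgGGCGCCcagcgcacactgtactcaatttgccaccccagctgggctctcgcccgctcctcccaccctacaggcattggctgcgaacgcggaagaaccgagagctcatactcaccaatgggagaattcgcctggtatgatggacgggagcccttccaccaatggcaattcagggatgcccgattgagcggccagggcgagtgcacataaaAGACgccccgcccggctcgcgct
Id3: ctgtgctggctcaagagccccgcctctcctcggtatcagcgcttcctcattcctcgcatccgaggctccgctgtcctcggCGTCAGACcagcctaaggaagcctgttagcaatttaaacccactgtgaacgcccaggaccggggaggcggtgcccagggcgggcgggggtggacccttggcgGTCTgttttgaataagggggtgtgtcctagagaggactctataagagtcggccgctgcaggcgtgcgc
Id4: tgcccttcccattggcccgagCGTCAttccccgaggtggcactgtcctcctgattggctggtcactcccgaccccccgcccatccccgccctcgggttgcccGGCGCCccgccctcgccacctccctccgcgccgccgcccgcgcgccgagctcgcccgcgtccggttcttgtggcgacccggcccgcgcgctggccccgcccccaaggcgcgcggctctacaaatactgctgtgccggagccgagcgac
GGCGCC was found at position −231 of Id2 and −148 of Id4, counted from the start site with −1 as the last base before it, and was not found in Id3. Of 32851 promoter windows of the same length, 300 bases with 50 after the start, 11.9% hold it. GTCT or its reverse complement AGAC began at −23 in Id2, at −166 and −68 in Id3 and, beyond the bases shown, at 22 after the start of Id3, and it was absent from the Id4 window, but 88% of all windows hold it. TGACG occurred in its reverse complement CGTCA at −170 in Id3, where it shares a base with the AGAC match, and at −229 in Id4, against 20.8% of all windows. A GGCGCC and a GTCT with 5 bases between them, in either order, were found in none of the 3 windows and in 0.119% of all. An E-box, CANNTG, the site of bHLH pairs, began at −196 in Id2 alone, against 72.3% of windows, and TATAAA was in none of the 3, against 13.6%. The GC content was 63.3% in the Id2 window, 60% in that of Id3 and 73.3% in that of Id4, with a median of 52.7% over all windows. A match describes these letters and says nothing of binding.

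Cells given noggin were compared with untreated cells, which asks whether Id transcripts stand lower under a BMP antagonist. All 8 Id probe sets read lower with noggin, and so did 37.7% of all probe sets above the floor. None of the 7 above the floor passed 1.5-fold lower, against 0.193% of that background. The differences ran from −0.49 to −0.05, with a median of −0.26, over these 7. Between genes, with 1 probe set each, Id2 at −0.49 held rank 23 from the lowest of 11594 genes, Id4 at −0.40 rank 53, Id3 at −0.26 rank 220 and Id1 at −0.19 rank 513.

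The Id2 probe sets did not give the same reading under noggin. 1422537_a_at gave −0.49, below the central 95% of probe sets of like level, −0.25 to 0.21, whereas 1435176_a_at gave −0.05, inside its range of −0.26 to 0.22. The gap between them was 0.44, set beside a within-gene SD of 0.11 for this comparison. For Id4, 1423259_at gave −0.40, under its range of −0.26 to 0.21, 1450928_at gave −0.41, under its range of −0.34 to 0.23, and 1423260_at gave −0.22, within −0.34 to 0.23. Id3 was just outside its range of −0.24 to 0.19, and Id1 was inside its range of −0.20 to 0.15. In all, 4 of the 7 lay under the central 95%, where 2.5% of probe sets of like level lie by construction. The matching level included the BMP4 array, so Id1, Id3 and the Id2 pair were matched above their noggin and untreated values. Ranges matched on the noggin and untreated arrays alone were not computed, so the place of Id3, just outside its range, is left undecided. The Id4 probe sets among the 4 share 1 source sequence, so the 4 are not independent. The difference of −0.54 for 1453596_at of Id2 was at the edge of a range of −0.54 to 0.06, since probe sets of such low level were on balance lower on the noggin array, with a median of −0.10.

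The values also have a limited resolution at low level. Many probe sets share 1 exact value, to 6 decimals: on the noggin array the 4.31 and 4.09 of the Id2 pair were shared with 109 and 126 other probe sets, and the 4.01 of 1450928_at with 144. The 2.001 of Id2 1453596_at on the untreated array was shared with 690. On the BMP4 array, the values of Id1, Id3 and all 3 Id2 probe sets were shared with none.

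Set side by side, the BMP4 and noggin arrays gave the widest contrast of the Id genes. BMP4 minus noggin was 4.59 and 4.76 for the Id2 pair, 3.85 for Id3 and 2.95 for Id1, or 24-fold, 27-fold, 14.4-fold and 7.74-fold higher with BMP4. For Id4 it was 1.24, 0.92 and 0.56, so 1423259_at was 2.36-fold higher with BMP4 than with noggin. Of the 7 Id probe sets above the floor, 5 reached 2-fold, against 0.18% of probe sets. With 1 probe set per gene, all 4 Id genes reached 2-fold, against 0.112% of genes. In this comparison the Id2 pair lay 0.17 apart, about the within-gene SD of 0.16.

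The untreated value did not sit at the same place between the other 2. In all 8 probe sets the order was BMP4 over untreated over noggin, an order shown by 13.4% of all probe sets that are not controls. The neighbours noggin and untreated in that order were separated by less than the gap from untreated to BMP4 in every case. Of the log2 distance from noggin to BMP4, the part below the untreated value was 1.04% and 10.7% for the Id2 pair, 6.45% for Id1 and 6.84% for Id3. For the Id4 probe sets it was 32.3%, 39.0% and 45.0%. These comparisons share arrays, so each share follows from the values above and is not separate evidence.

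Genes with a pattern like that of an Id gene were sought by the distance in the plane of BMP4 minus untreated and noggin minus untreated, over 11152 genes on 3 arrays. Id2 and Id3 were 0.56 apart, Id1 and Id3 0.82 apart, and Id1 and Id2 1.37 apart. The closest other gene to each of Id1, Id2 and Id3 was Msx2, a homeobox gene, at 1.24, 2.61 and 2.07. Id1 thus lay nearer to Msx2 than to Id2. Msx2 read 6.25 with BMP4, 4.77 with noggin and 4.71 untreated, so it was not lower with noggin. Hnrnpu, a nuclear RNA-binding protein, Dusp9, a MAP kinase phosphatase, and Malat1 followed for all 3, with BMP4 minus untreated between 1.24 and 1.46. The other probe sets of Dusp9 above the floor gave 1.07 and 1.27, whereas the other 4 of Hnrnpu ran from −0.07 to 0.03 and the other 6 of Malat1 from 0.00 to 2.34.

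Id4 lay 1.94 from Id1, and other genes were much closer to it. Gata2, a zinc finger regulator of blood precursors, was 0.17 away and read 5.81 with BMP4, 4.34 with noggin and 4.81 untreated. Then came N6amt1, a methyltransferase, at 0.29, the stress-response gene Gadd45b at 0.33 and Pggt1b, a subunit of a prenyltransferase, at 0.36. Another probe set of Gata2 gave 0.27 with BMP4, those of Gadd45b 0.00 and 0.24, against 0.66 for the one used, and those of Pggt1b −0.05 and 0.00. With the probe sets of each gene averaged, 1 of the 4 closest genes remained for each Id gene.

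**Figure D3:**
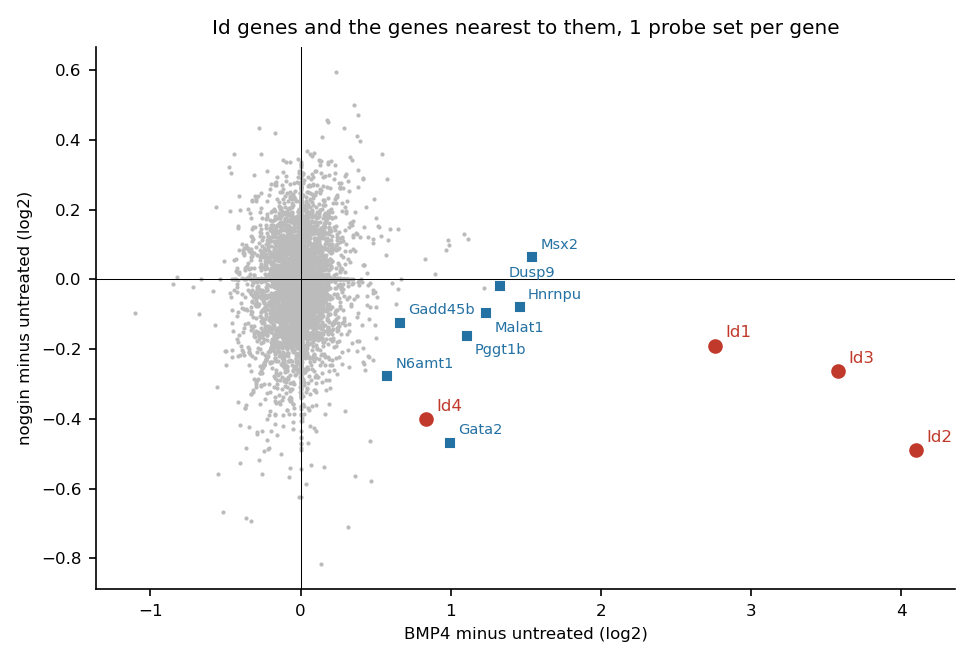
Noggin minus untreated is plotted against BMP4 minus untreated, both in log2, with 1 probe set per gene above the floor; red circles are Id genes, blue squares their closest genes and grey points the rest. Id1, Id2 and Id3 stand to the right of all other genes, and Id4 lies beside Gata2; both axes share the untreated array.

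The genes whose products act with the Id proteins were described next. The E proteins, partners that Id proteins capture, differed little: Tcf3 read 7.44 with BMP4, 7.35 with noggin and 7.32 untreated, Tcf12 read 7.02 with BMP4, 7.11 with noggin and 7.01 untreated, and Tcf4 read 7.33 with BMP4, 7.14 with noggin and 7.36 untreated. Over their 11 probe sets above the floor, BMP4 minus untreated ran from −0.18 to 0.33 and noggin minus untreated from −0.23 to 0.10. None passed 1.5-fold, but few of all probe sets did. Of those above the floor, 0.519% were that much higher with BMP4 and 0.193% that much lower with noggin. Of the 16 tissue bHLH activators listed, 15 were on the arrays and 8 above the floor. With BMP4, 3 of the 8 were higher and 2 lower, where 24.8% of all genes were higher and 35.6% lower, and 3 were equal. The median was 0.00, as for all genes. None passed 1.5-fold with BMP4, where 0.224% of all genes were that much higher. Neurog3, a proneural and endocrine factor, was at 4.20 with BMP4, 3.28 with noggin and 3.84 untreated, and Mesp2, a paraxial mesoderm factor, at 4.41 with BMP4, 3.72 with noggin and 4.26 untreated. These 2 had the lowest noggin values relative to untreated cells in that list, at −0.57 and −0.54, and both lie near the floor. They were also the 2 of the 8 past 1.5-fold in BMP4 minus noggin, at 0.93 and 0.69, against 0.38% of genes. Over all probe sets above the floor that share was 1.04%. The noggin value of Neurog3 was itself below the floor. Ascl2, a trophoblast factor, differed by −0.08 with BMP4, and Neurod1, a neuronal factor, by −0.05 with noggin.

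Most other known BMP-SMAD target genes above the floor also read higher with BMP4, some only slightly and all by smaller amounts than Id1, Id2 and Id3. Of 19 on the arrays 14 were above the floor, and 10 were higher with BMP4, 2 lower and 2 equal, where 24.8% of all genes were higher. Among the 10, Dlx3 at 0.02, Tlx2 at 0.03, Msx1 at 0.13 and Hey1 at 0.15 lay inside the range of −0.25 to 0.21 that held most genes. The median of the 14 was 0.14, beside 0.00 over all 11594 genes, and it was 0.03 when no floor was set. Past 2-fold was Msx2 at 1.54, and past 1.5-fold also Gata2 at 0.99 and Smad6, an inhibitory SMAD, at 0.67, so 3 of 14 reached that size, against 0.224% of genes. With noggin, 3 were higher, 4 lower and 7 equal, where 36.1% of all genes were lower, and the median was 0.00. Gata2 differed by −0.47, Snai2, a zinc finger repressor, by −0.27 and its relative Snai1 by 0.29. Of the 10 BMP receptor and SMAD genes above the floor, 2 were higher with BMP4, 3 lower and 5 equal, where 39.6% of all genes were equal. After a loess correction, which breaks exact ties, 7 of the 10 were above 0, a count with no share of all genes beside it. With 1 probe set per gene, the largest differences there were −0.26 for Bmp4 itself, −0.12 for Smad1 and 0.10 for the receptor gene Bmpr1a. Other probe sets above the floor did not all give the same reading. Those of Smad1 gave 0.20 and −0.09, and those of Bmpr1a ran from 0.06 to 0.33. Those of Smad5 gave 0.34 and −0.02, and those of Smad4 −0.17 and −0.18. With noggin 5 were higher, against 26.8% of all genes, and 2 were lower. Their differences ran from −0.12 for Smad1 to 0.21 for Eng, a co-receptor of the TGF-beta family, with Bmp4 at −0.09.

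**Figure D4:**
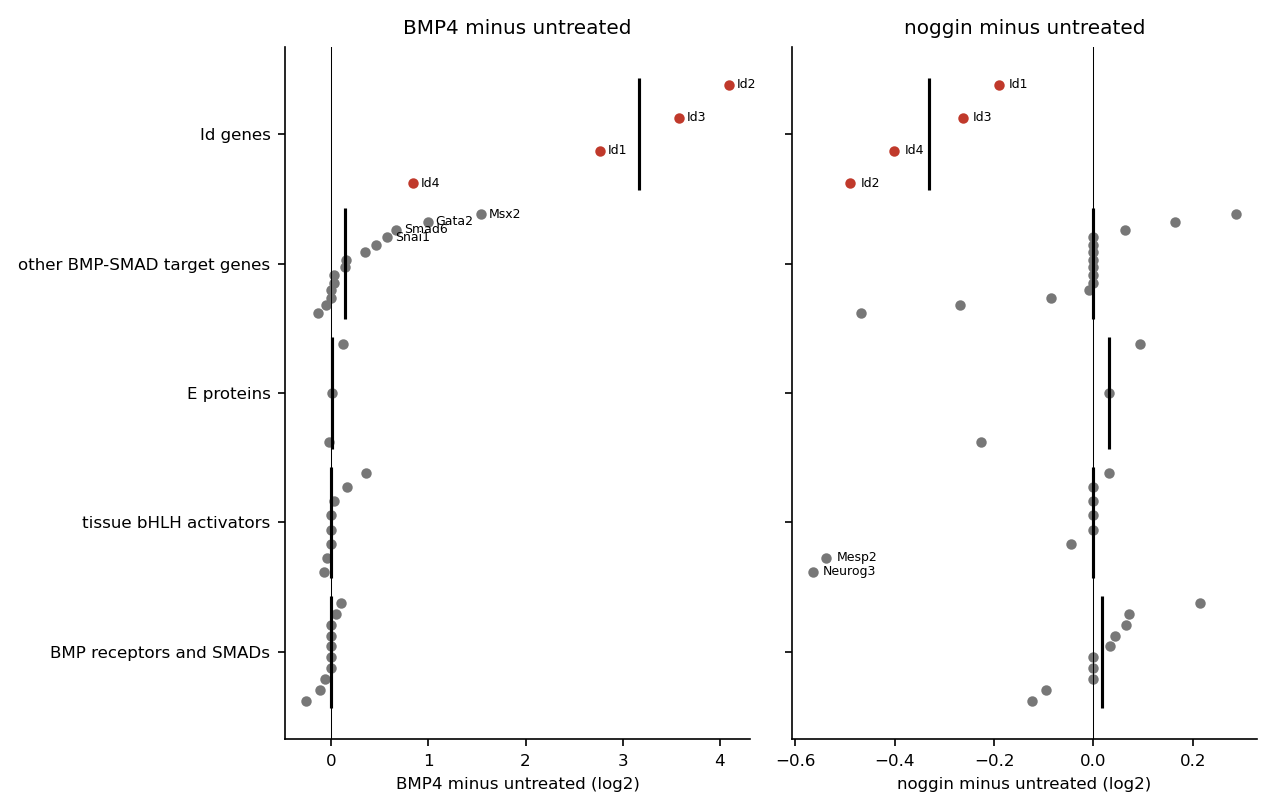
Each point is 1 gene above the floor, placed by its log2 difference for BMP4 minus untreated on the left and noggin minus untreated on the right, and vertical bars are medians of the lists; the 2 horizontal scales differ. The Id genes reach from 0.84 to 4.10 with BMP4, beyond the E proteins, tissue bHLH activators and receptor genes, which stay between −0.26 and 0.36. They overlap the other BMP-SMAD target genes, of which Msx2 at 1.54 and Gata2 at 0.99 lie above Id4.

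Genes next to the Id genes on their chromosomes were also read, by a rule of position that was added after the Id values had been seen. The 3 protein-coding neighbours on each side were taken from the RefSeq order, 24 genes in all, of which 23 were on the arrays and 20 above the floor. None of the 20 passed 1.5-fold in any comparison. Few of all genes above the floor did: the largest share in 1 direction was 0.38%, higher in BMP4 minus noggin. A count of 0 among 20 genes is therefore near the share over all genes. BMP4 minus untreated ran from −0.06 for Mcts2, beside Id1, to 0.12 for Rrm2, a ribonucleotide reductase subunit near Id2. Noggin minus untreated ran from −0.14 for Tcea3, near Id3, to 0.13 for Kidins220, beside Id2. The direct neighbours of Id3, Rpl11 and E2f2, a ribosomal protein gene and a cell cycle factor, differed by 0.01 and 0.04 with BMP4. Zfp169, beside Id4, read 3.07 with BMP4, 2.75 with noggin and 2.90 untreated, below the floor on each array.

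**Figure D5:**
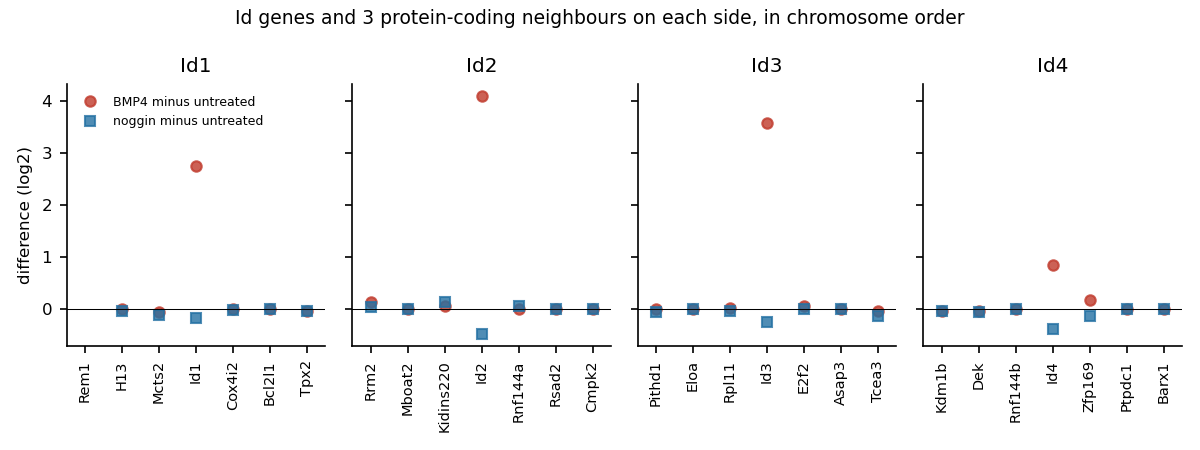
Log2 differences are plotted for each Id gene and its 3 protein-coding neighbours on each side in chromosome order, with circles for BMP4 minus untreated and squares for noggin minus untreated. Rem1 was not on the arrays; with BMP4 the Id genes stand at 0.84 to 4.10 and the neighbours above the floor between −0.06 and 0.12.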

How the data were processed

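The deposited table holds 1 log2 value for each probe set and array, made with RMA according to the submitters' processing notes. RMA corrects background, makes array distributions alike by quantile normalization and summarises probes by median polish, which can return exact ties. Of the probe sets that are not controls, 26.1% had an unchanged value on all 3 arrays, to 6 decimals. This tie between arrays differs from a value that many probe sets share on 1 array. A change in total RNA per cell would be lost in quantile normalization. RMA settings and a genome build are not given in the sources used here. The number of arrays limits the precision.

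Names came from the platform annotation: 34945 had 1 gene symbol, 932 several and 9160 none, and 34741 matched RefSeq genes (GRCm38.p6) with 0 symbols changed. A gene was represented by its probe set with the highest mean, and kept if it was above 3.44, the median of all values, on at least 1 array. Differences were subtracted in Python 3.11.15 with pandas 2.3.3, and the computation was checked on simulated data. The closest genes were the 4 with the smallest distance to each Id gene, clone names left out. From the lists of target, partner and receptor genes, the text names members past 2-fold and the 3 furthest from 0 in each comparison with untreated cells; marker genes named were chosen after their values were seen. Members and lists were chosen with earlier results of these data known. Alternatives were centred or loess-corrected differences (span 0.3), probe sets averaged or of plain suffix, and other floors.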

Additional observations from a re-analysis of the deposited data

How the results depend on the processing

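Centring changed nothing, since the median difference of all probe sets was 0.00 in each comparison. Loess correction changed the sign of no Id probe set and moved none by more than 0.19, the shift of Id2 1453596_at with noggin, to −0.34. With all probe sets of a gene averaged, Id2 gave 3.19 for BMP4 minus untreated, 3.55 for BMP4 minus noggin and −0.36 under noggin relative to no treatment, and Id4 differed by 0.56 for BMP4 minus untreated and 0.90 for BMP4 minus noggin, so Id4 no longer passed 1.5-fold in the first or 2-fold in the last. With plain-suffix probe sets alone, Id2 rested on 1453596_at, below the floor, at 0.78 for BMP4 minus untreated and 1.32 for BMP4 minus noggin, and Id1 had no value. Averaging left 7 genes at least 2-fold higher in BMP4 minus untreated, against 11, and 7 in BMP4 minus noggin, against 13. A floor at the 75th percentile gave the other BMP-SMAD targets a median of 0.40 for BMP4 minus untreated and 0.33 for BMP4 minus noggin, against 0.14 in each. With no floor the first was 0.03, and with probe sets averaged they were 0.24 and 0.25. The higher floor left no tissue bHLH gene to describe. Ranked by BMP4 minus noggin alone, 1 of the 4 genes closest to Id4 remained. The loess correction turns exact ties into small differences and so moved counts of list members above 0: other BMP-SMAD targets had 10 of 14 above 0 with noggin, against 3, tissue bHLH genes 6 of 8 with BMP4, against 3, and 5 with noggin, against 1, and receptor and SMAD genes 7 of 10 with BMP4, against 2, and 8 with noggin, against 5. The share of all genes above 0 after loess correction was not computed, so these loess counts have no background. Without the correction, 39.6% of all genes above the floor were exact ties with BMP4 and 37% with noggin. With probe sets averaged or no floor, 4 receptor and SMAD genes were above 0 with BMP4. With no floor, 6 tissue bHLH genes were above 0 with BMP4 and 3 with noggin. The cause of the other changes was not tested. With 1 array per condition, no alternative left out a replicate.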
